A study of Mus musculus with 12 samples.

Results

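The 10 genes described here are the ligand Tnf, the receptors Tnfrsf1a, Tnfrsf1b and Tnfrsf12a, the feedback inhibitors Tnfaip3 and Nfkbia, the NF-kB subunits Nfkb1, Nfkb2 and Relb, and Birc3. They were chosen by name, as the TNF receptors and NF-kB feedback genes of a liver RNA-seq experiment, and their 21 protein-coding transcripts were summed to gene level. The whole table held 29883 protein-coding transcripts of 14188 genes. All 10 genes were found, and none was listed at 0 at gene level in any mouse.

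Livers came from 12 male mice that were 6 weeks old at the start. The labels name the strain C57BL/8, while the study's methods name C57BL/6J. Every mouse, controls included, received carbon tetrachloride (CCl4, a hepatotoxin that causes centrilobular injury and fibrosis) in corn oil, 10 µl of the mix per g of body weight, into the peritoneum 2 times a week. The 6 mice of the PZH group were also given Pien Tze Huang (PZH), a herbal medicine, at 0.25 mg/g by gavage each day, and the 6 mice of the control group were given water. Livers were taken in week 8, so that the comparison asks which transcripts differ with PZH in livers that were all injured. No library of an uninjured liver was analysed here, and because whole liver was sequenced, fewer cells of a type and less RNA per cell cannot be told apart.

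Tumour necrosis factor (TNF) is a cytokine made largely by macrophages, and in liver it reaches hepatocytes, endothelial cells and stellate cells. Its receptors recruit adaptors and ubiquitin ligases that activate the IKK kinases, which release NF-kB dimers from their IkB inhibitors. NF-kB then switches on inflammatory genes together with its own brakes, among them Nfkbia and Tnfaip3, and genes of its own subunits.

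The regions just before the start sites of these genes are shown first, because feedback genes of this pathway are known to be bound by NF-kB there. RefSeq windows on GRCm38.p6, 250 bases before to 50 bases after a start, were found for 8 of the 10 genes. They comprised 11 windows, since Tnfaip3 and Nfkb2 have more than 1 start. Both strands were searched for a spelled motif, which is GGG, any 3 bases and then TTCC, and for the NF-kB consensus, given here by name alone. The consensus matched a larger share of all windows but does not cover every match of the spelled motif. Matches of the 2 motifs can overlap. The printed stretch is the 250 bases before the start, 5′ to 3′ on the gene's strand, with every match of either motif in capitals. Nfkbia, Tnfaip3 and Nfkb2 are printed because their windows held a match, and Tnfrsf12a because it had the largest difference between the groups.
Nfkbia, chr12:55492648-55492897, minus strand: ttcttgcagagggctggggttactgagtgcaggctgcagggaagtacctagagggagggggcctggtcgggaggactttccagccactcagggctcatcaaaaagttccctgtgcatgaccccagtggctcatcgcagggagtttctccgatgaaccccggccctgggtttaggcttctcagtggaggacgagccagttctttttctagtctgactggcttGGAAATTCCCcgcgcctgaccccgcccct
Tnfaip3, chr10:19015411-19015660, minus strand: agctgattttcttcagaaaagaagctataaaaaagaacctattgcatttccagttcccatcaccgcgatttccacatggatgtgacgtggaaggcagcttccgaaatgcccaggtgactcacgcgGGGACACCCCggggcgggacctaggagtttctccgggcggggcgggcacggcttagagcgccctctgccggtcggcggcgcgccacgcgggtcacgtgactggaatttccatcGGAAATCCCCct
Nfkb2, chr19:46304487-46304736, plus strand: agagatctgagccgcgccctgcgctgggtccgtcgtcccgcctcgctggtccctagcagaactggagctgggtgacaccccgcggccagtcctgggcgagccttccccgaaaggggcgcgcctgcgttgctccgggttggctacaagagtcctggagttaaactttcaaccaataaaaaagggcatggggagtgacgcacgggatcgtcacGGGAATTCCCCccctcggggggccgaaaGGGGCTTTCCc
Nfkb2, chr19:46305445-46305694, plus strand: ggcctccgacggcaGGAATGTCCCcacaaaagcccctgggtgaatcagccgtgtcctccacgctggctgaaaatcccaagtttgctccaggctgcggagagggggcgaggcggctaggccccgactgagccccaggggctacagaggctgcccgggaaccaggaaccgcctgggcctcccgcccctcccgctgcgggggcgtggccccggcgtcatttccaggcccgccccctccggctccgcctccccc
Tnfrsf12a, chr17:23677450-23677699, minus strand: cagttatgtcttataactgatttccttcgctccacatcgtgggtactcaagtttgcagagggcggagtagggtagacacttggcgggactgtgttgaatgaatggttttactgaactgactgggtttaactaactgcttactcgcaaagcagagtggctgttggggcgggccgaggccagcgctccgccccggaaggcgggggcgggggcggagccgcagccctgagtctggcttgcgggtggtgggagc
Counted from the start, with -1 as the base just before it, Nfkbia held GGAAATTCCC from -29 to -20, on the opposite strand. At the start printed above, Tnfaip3 held GGGACACCCC from -125 to -116 and GGAAATCCCC from -12 to -3. That is the start of ENSMUST00000019997, which held 3.38% of Tnfaip3 in control and 14.9% in PZH livers. The other start of Tnfaip3, not printed, had GGGTTATTCC from -90 to -81. It is the start of ENSMUST00000105527, which held 77.8% of the gene in control and 65.0% in PZH livers. The upstream start of Nfkb2 had a run of overlapping matches from -39 to -29 and GGGGCTTTCC from -11 to -2, and the next start had GGAATGTCCC from -236 to -227. Tnfrsf12a, Tnf, Tnfrsf1a, Tnfrsf1b and Birc3 had neither motif in these windows, which says only that the letters are not there. By gene, 3 of the 8 had the spelled motif in a window, against 6.31% of all genes, and the same 3 had the NF-kB consensus, against 9.55%. By window, 6 of 11 held the spelled motif, against 5.56% of all 32851 windows of the same length, and 5 held the NF-kB consensus, against 8.46%, where a pair of overlapping Nfkb2 windows share 1 match, GGGACTTTCC. These matches are descriptions of the sequence and not measured binding sites.

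Of the 10 genes, 9 were lower in the PZH group, none was higher, and Nfkbia did not pass the test. The test was limma on log2(FPKM + 1), where FPKM is a level scaled to transcript length and library size, with Benjamini-Hochberg adjustment over all 14188 genes and a threshold of 0.05. By the same test 44.8% of all genes were called, 32.1% as lower and 12.7% as higher, so a lower call was common in these livers. The median log2 fold change of the 10 genes was -0.81, beside -0.11 over all genes. With a 2-fold difference and an unadjusted p below 0.05, the criteria of the study, 3 of the 10 genes were lower (Tnfrsf12a, Nfkb1 and Nfkb2), and 2.50% of all genes were. In 5 of the 10 (Tnf, Tnfrsf1a, Tnfrsf12a, Nfkb1 and Nfkb2) all 6 PZH mice lay below all 6 control mice, as they did in 17.9% of all genes. When each mouse was rescaled by the median ratio of its transcripts to their geometric mean over the series, over the 23109 transcripts listed above 0 in all mice, the median of all genes moved by 0.11 on the log2 scale to -0.00. After this scaling 7 of the 10 genes were still lower, with a median of -0.72, while 39.0% of all genes were called, 19.7% as lower and 19.3% as higher. All log2 fold changes below are PZH minus control on the log2(FPKM + 1) scale, which understates the change of genes near or below an FPKM of 1.

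**Figure D1:**
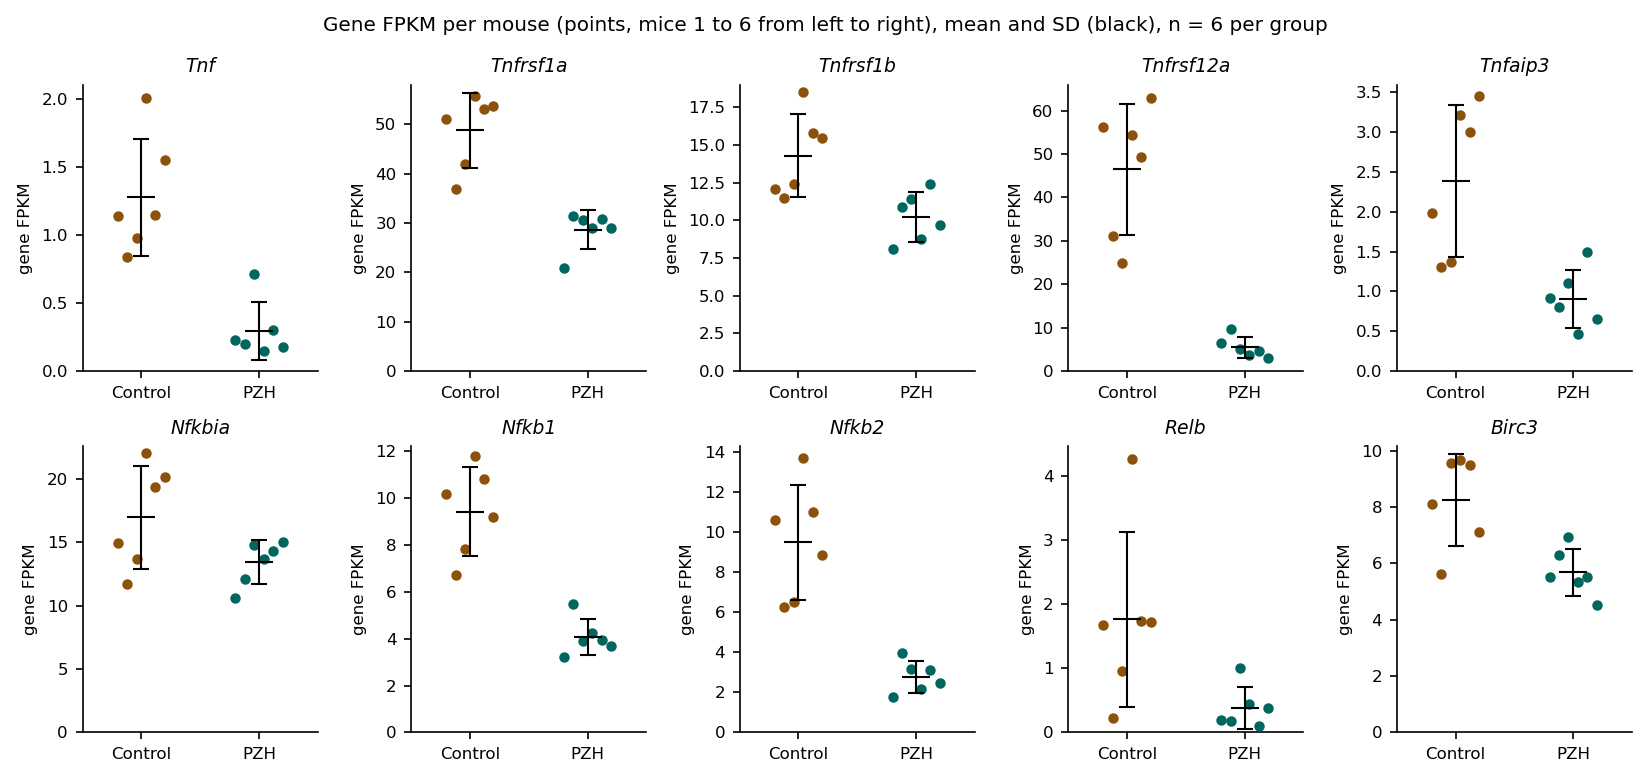
FPKM of the 10 genes in each of the 12 mice (points), with the mean and SD of the 6 control and 6 PZH mice in black; each panel has its own linear axis. The groups are apart for Tnf, Tnfrsf1a, Tnfrsf12a, Nfkb1 and Nfkb2 and overlap for the other 5 genes.

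Tnf, the ligand of both TNF receptors, had the lowest mean level of the 10 genes in either group. It was 0.841 FPKM in the lowest control mouse, 1.15 at the control median and 2.01 in the highest, and 0.144, 0.211 and 0.710 in the PZH mice in the same order. The lowest control mouse was above the highest PZH mouse, and PZH 3 stood above the other 5 PZH mice, which lay between 0.144 and 0.298. The mean fell from 1.28 ± 0.430 to 0.292 ± 0.211 FPKM (SD, n = 6 per group), a ratio of 4.38, with a log2 fold change of -0.81 with an SE of 0.13 (adjusted p = 0.000297 by limma). With a pseudocount of 0.1 in place of 1 the log2 fold change was -1.89, which shows how far the added constant compresses a gene of this level. The exact permutation test over all labellings of the 12 mice gave the smallest two-sided p it can give, 0.0022.

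Tnfrsf1a encodes TNF receptor 1, the broadly expressed receptor with a death domain, and had the highest mean of the 10 genes in both groups. Control mice ranged from 36.9 FPKM through a median of 52.1 to 55.8, and PZH mice from 20.8 through 29.8 to 31.5. The groups did not overlap, and 5 of the PZH mice lay within a narrow band from 29.0 to 31.5 with PZH 1 alone below it. Tnfrsf1a fell from 48.7 ± 7.53 to 28.6 ± 3.96 FPKM, a log2 fold change of -0.75 with an SE of 0.12 (adjusted p = 0.000374 by limma, n = 6 per group), or -0.57 after median-ratio scaling (adjusted p = 0.000801).

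Tnfrsf1b encodes TNF receptor 2, which lacks a death domain and is found mainly on immune and endothelial cells. Its level was 11.5 FPKM in the lowest control mouse, 14.0 at the median and 18.5 in the highest, and 8.10, 10.3 and 12.4 in the PZH mice. The ranges overlapped at 2 control mice, and the other 4 control mice were above every PZH mouse. The fall was smaller than that of Tnfrsf1a, from 14.3 ± 2.74 to 10.2 ± 1.63 FPKM, a log2 fold change of -0.44 with an SE of 0.13 (adjusted p = 0.0128 by limma, n = 6 per group). Under median-ratio scaling it was -0.27 with an adjusted p of 0.0532, so this call was lost with the scaling.

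Tnfrsf12a encodes Fn14, the receptor of the TNF family ligand TWEAK, which is low in resting liver and induced by injury. It had the largest difference of the 10 genes. Control livers held 24.9 FPKM at the lowest, 51.9 at the median and 63.0 at the highest, whereas PZH livers held 3.06, 4.78 and 9.68. Every control mouse was well above every PZH mouse. The mean fell from 46.5 ± 15.1 to 5.42 ± 2.40 FPKM, a ratio of 8.58 and a log2 fold change of -2.89 with an SE of 0.26 (adjusted p = 1.39e-05 by limma, n = 6 per group). Median-ratio scaling gave -2.72 (adjusted p = 2.11e-05), and leaving out any 1 mouse gave between -3.05 and -2.77. In the control group its range overlapped that of Tnfrsf1a, while in the PZH group it lay between Birc3 and Nfkb1.

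The transcript of its ligand, Tnfsf12 (TWEAK), did not pass the test. Tnfsf12 was 3.95 ± 0.364 FPKM in control and 3.55 ± 0.829 in PZH livers, a log2 fold change of -0.14 with a 95% interval from -0.39 to 0.11 (limma adjusted p = 0.350, n = 6 per group). On the log2(FPKM + 1) scale a gene of this level could not fall as far as the receptor transcript, so the intervals are not compared. The PZH mean was 89.8% of the control mean for Tnfsf12 and 11.7% for Tnfrsf12a.

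Tnfaip3 and Nfkbia are both textbook NF-kB target genes that restrain the pathway, Tnfaip3 (A20) as a ubiquitin-editing enzyme that acts at the receptor complex and Nfkbia (IkB-alpha) as the inhibitor that holds NF-kB dimers in the cytoplasm. Only Tnfaip3 passed the test. Tnfaip3 was 1.31 FPKM in the lowest control mouse, 2.49 at the median and 3.45 in the highest, and 0.458, 0.858 and 1.50 in PZH mice. There were 4 control mice above every PZH mouse, and Control 2 and Control 3 lay inside the PZH range. Tnfaip3 fell from 2.39 ± 0.955 to 0.907 ± 0.368 FPKM, a log2 fold change of -0.80 with an SE of 0.19 (adjusted p = 0.00387 by limma, n = 6 per group), and -0.69 after median-ratio scaling (adjusted p = 0.00763).

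Nfkbia was 11.7 FPKM in the lowest control mouse, 17.1 at the median and 22.0 in the highest, and 10.6, 14.0 and 15.0 in the PZH mice. The 3 highest mice were controls, and the other 3 controls lay within the PZH range. The means were 17.0 ± 4.08 and 13.4 ± 1.71 FPKM, a log2 fold change of -0.29 with an SE of 0.14 (95% interval -0.60 to 0.02, adjusted p = 0.117 by limma, n = 6 per group). The exact permutation p was 0.0931. Median-ratio scaling gave a log2 fold change of -0.12 (limma adjusted p = 0.506). As deposited, the lack of a call depended on Control 2, the lowest control mouse. Without it the log2 fold change was -0.39 with a limma adjusted p of 0.0299. Over the 12 fits that left out 1 mouse each, the call was made in that 1 fit.

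Nfkb1 encodes p105, the precursor of the p50 subunit, and Nfkb2 encodes p100, the precursor of p52 and the inhibitor that the non-canonical arm of the pathway processes. Nfkb1 ranged from 6.73 FPKM through a median of 9.69 to 11.8 in control mice and from 3.24 through 3.94 to 5.50 in PZH mice. Nfkb2 ranged from 6.28 through 9.71 to 13.7 in control mice and from 1.76 through 2.78 to 3.97 in PZH mice. For both genes the groups were apart, and in control livers their levels were much the same. Nfkb1 fell from 9.42 ± 1.89 to 4.09 ± 0.768 FPKM, a log2 fold change of -1.03 with an SE of 0.13 (adjusted p = 7.48e-05 by limma, n = 6 per group). Nfkb2 fell further, from 9.48 ± 2.86 to 2.77 ± 0.801 FPKM, a log2 fold change of -1.46 with an SE of 0.19 (adjusted p = 7.86e-05 by limma, n = 6 per group). Median-ratio scaling left -0.87 for Nfkb1 and -1.31 for Nfkb2, with adjusted p of 0.000139 and 0.000108.

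Relb, the partner of p52 in the non-canonical dimer, was the most variable of the 10 genes. Control mice spanned 0.218 to 4.25 FPKM with a median of 1.70, and PZH mice 0.106 to 1 FPKM with a median of 0.284. The lowest control mouse, Control 2, lay near the bottom of the PZH range, and 4 control mice were above every PZH mouse. The mean fell from 1.76 ± 1.36 to 0.384 ± 0.330 FPKM, with a log2 fold change of -0.89 with an SE of 0.28 (adjusted p = 0.0192 by limma, n = 6 per group) and a coefficient of variation of 77.2% in control and 86.1% in PZH mice. The values stay below or near 1 FPKM in most mice, and with a pseudocount of 0.1 the log2 fold change was -1.80 (adjusted p = 0.0200).

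Birc3 encodes cIAP2, a ubiquitin ligase recruited to TNF receptor 1 and itself a target gene of NF-kB. It was 5.62 FPKM in the lowest control mouse, 8.80 at the median and 9.68 in the highest, and 4.51, 5.52 and 6.93 in the PZH mice. A single control mouse, Control 2, lay within the PZH range. Birc3 fell from 8.26 ± 1.64 to 5.68 ± 0.832 FPKM, a log2 fold change of -0.46 with an SE of 0.13 (adjusted p = 0.0100 by limma, n = 6 per group). Like that of Tnfrsf1b, its call was lost with median-ratio scaling (-0.30, adjusted p = 0.0619). Birc2, which encodes the related ligase cIAP1, did not pass the test at 10.7 ± 0.508 and 10.2 ± 1.21 FPKM (log2 fold change -0.07, 95% interval -0.22 to 0.09, limma adjusted p = 0.493).

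**Figure D2:**
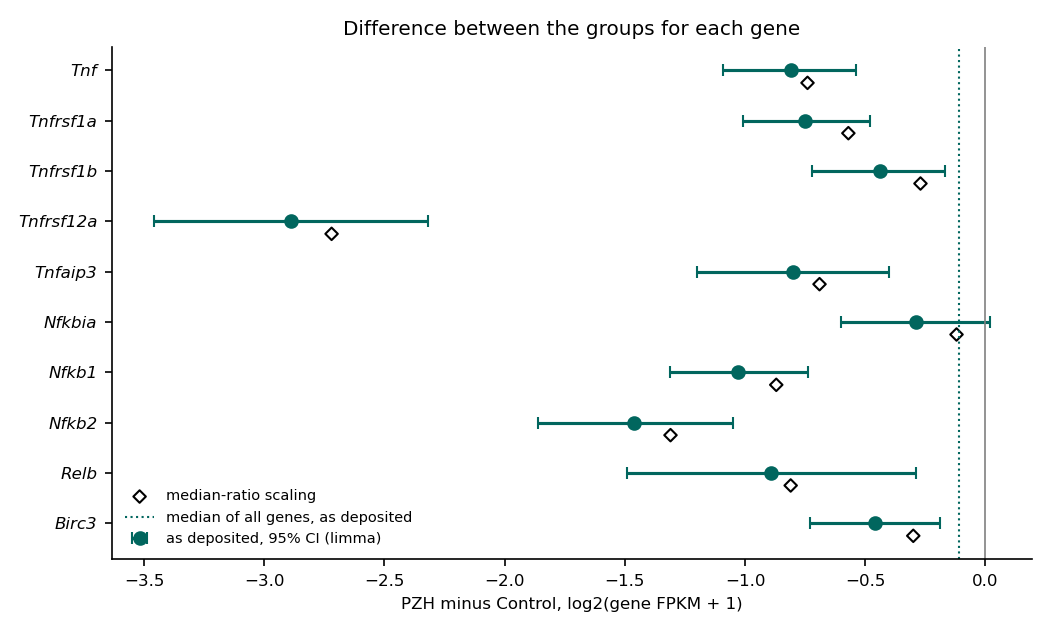
Log2 fold change of the 10 genes, PZH minus control on log2(FPKM + 1), as deposited (points, with bars for the limma 95% interval, n = 6 per group) and after median-ratio scaling (diamonds); the dotted line is the median of all genes. Tnfrsf12a lies farthest from 0 at -2.89, and Nfkbia at -0.29 has an interval that reaches 0.

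The order of the levels differed between the groups most for 2 genes. Tnfrsf12a had rank 2 in control and rank 5 in PZH livers, and Birc3 had rank 7 and rank 4. In control livers the order from the highest was Tnfrsf1a, Tnfrsf12a, Nfkbia, Tnfrsf1b, Nfkb2, Nfkb1, Birc3, Tnfaip3, Relb and Tnf. Of its neighbours, Tnfrsf12a and Nfkbia, and Birc3 and Tnfaip3, had ranges that did not overlap, and all other neighbours overlapped. In PZH livers the order was Tnfrsf1a, Nfkbia, Tnfrsf1b, Birc3, Tnfrsf12a, Nfkb1, Nfkb2, Tnfaip3, Relb and Tnf, with Tnfrsf1a clear of Nfkbia, Tnfrsf1b clear of Birc3, and Nfkb2 clear of Tnfaip3. FPKM is per length of transcript, so these levels can be set side by side.

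Ratios within a mouse do not depend on how its library was scaled, and 6 were compared with exact two-sided permutation tests, adjusted over the 6 by Benjamini-Hochberg. The ratio of Tnfrsf12a to Tnfrsf1a was 0.592 to 1.18 in control mice and 0.105 to 0.314 in PZH mice, with no overlap. Its mean fell from 0.936 ± 0.206 to 0.194 ± 0.0924, a log2 difference of -2.36 (n = 6 per group, exact p = 0.0022, adjusted p = 0.0043). The ratio of Tnfrsf1b to Tnfrsf1a rose from 0.294 ± 0.0322 to 0.359 ± 0.0370, a log2 difference of 0.29 (exact p = 0.0087, adjusted p = 0.0104), with 5 of 6 PZH mice above every control.

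The ratio of Nfkb2 to Nfkb1 was 0.832 to 1.16 in control and 0.508 to 0.812 in PZH mice, again without overlap. It fell from 0.991 ± 0.111 to 0.673 ± 0.125, a log2 difference of -0.57 (exact p = 0.0022, adjusted p = 0.0043). The ratio of Nfkbia to Rela, the inhibitor to the p65 subunit that it binds, rose from 0.806 ± 0.106 to 1.35 ± 0.213, a log2 difference of 0.74 (exact p = 0.0022, adjusted p = 0.0043). All 6 PZH mice had more Nfkbia than Rela, with ratios from 1.02 to 1.62, and all 6 control mice had less, with ratios from 0.660 to 0.915.

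The 2 inhibitors did not move in parallel. The ratio of Tnfaip3 to Nfkbia fell from 0.136 ± 0.0270 to 0.0683 ± 0.0267, a log2 difference of -1.08 (exact p = 0.0043, adjusted p = 0.0065), with 5 of 6 PZH mice below every control. The ratio of Relb to Rela was 0.0788 ± 0.0529 in control and 0.0382 ± 0.0302 in PZH mice and did not pass (log2 difference -1.09, exact p = 0.152, adjusted p = 0.152). Without Control 2, which had the lowest ratio of the controls, its log2 difference was -1.54 with an adjusted exact p of 0.0303, whereas with a pseudocount of 1 added to both genes the difference of all 12 mice turned to 0.09 (adjusted exact p = 0.758).

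**Figure D3:**
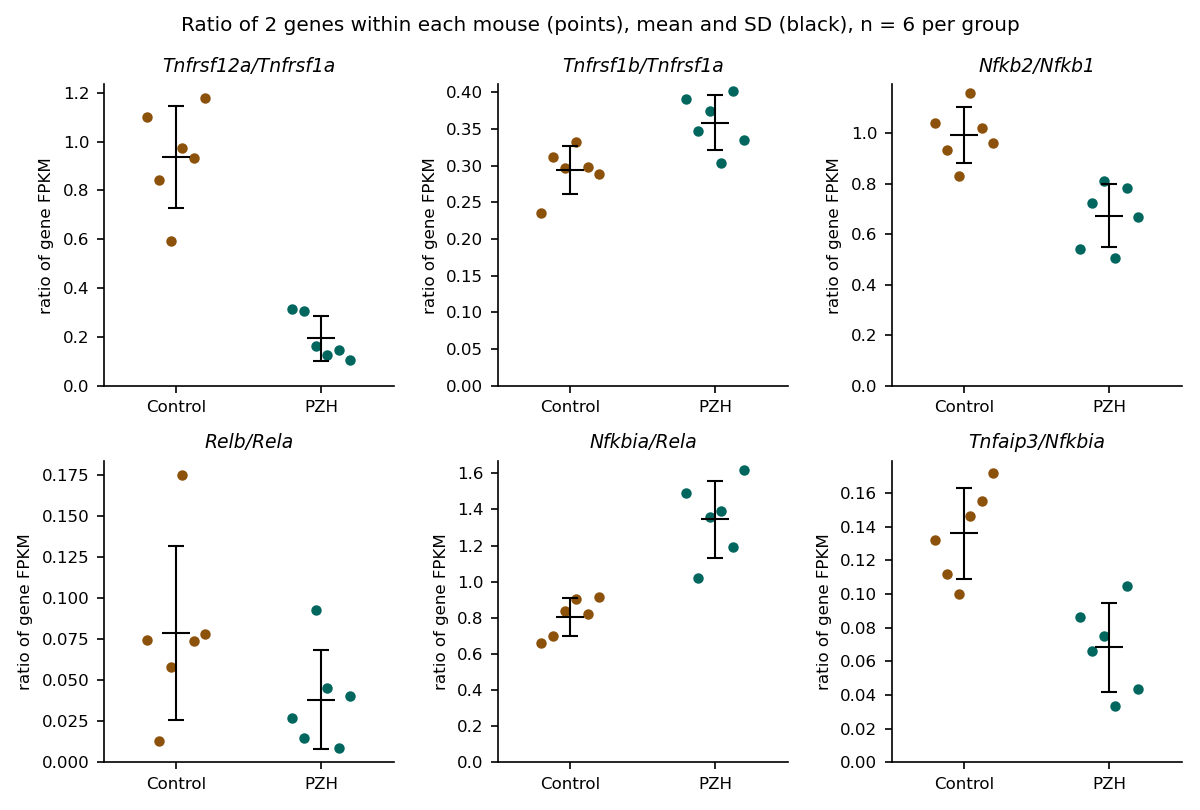
Ratio of 2 genes' FPKM within each mouse (points) for the 6 pairs compared, with mean and SD of 6 mice per group in black; all axes start at 0. The groups are apart for Tnfrsf12a/Tnfrsf1a, Nfkb2/Nfkb1 and Nfkbia/Rela.

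The genes also varied together among mice of the same group. Control 2 had the lowest level of the control group in 9 of the 10 genes, Control 3 was among the lowest 2 in 8, and Control 4 had the highest in 8. In the PZH group the order was less uniform, with PZH 1 lowest in 5 genes and PZH 2 highest in 4. After subtraction of the group mean, the 45 pairs of genes had Pearson correlations over the 12 mice from 0.25 (Tnfrsf12a with Nfkbia) to 0.90 (Nfkb1 with Nfkb2), with a median of 0.62. Within the control group alone the median was 0.80, and within the PZH group it was 0.37, with 37 of 45 pairs positive. Genes of 1 library share its scaling and its makeup of cells, and these values over 6 or 12 mice are given as a description.

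Over the same centred values, the genes most like Tnfrsf12a among 10948 genes with a mean FPKM of at least 1 were Utp20, Ddx21, Ncl, Prkaa1 and Gm49336, each with a Pearson correlation of 0.95 over 12 mice. Those most like Nfkbia were Mapkapk2 at 0.95 and Pim3, Mknk2, Cyth1 and Ttc7b at 0.94. Of these 10 genes, Pim3 (7.08 and 7.54 FPKM) and Ttc7b (4.08 and 4.01 FPKM) did not pass the test between the groups, with limma adjusted p of 0.723 and 0.941.

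At transcript level, the limma fit over 29883 transcripts called 9 of the 21 transcripts, all lower, where 19.7% of all transcripts were called and 14.0% were called lower. In 5 of the 21 the groups were apart, with the PZH mice below, against 8.58% of all transcripts. These 5 were 1 transcript each of Tnf, Tnfrsf1a, Tnfrsf12a, Nfkb1 and Nfkb2. ENSMUST00000024698 held nearly all of Tnfrsf12a and fell from 42.9 ± 14.5 to 5.39 ± 2.36 FPKM, a log2 fold change of -2.79 (limma adjusted p = 0.000103, n = 6 per group). The exception was Control 1, where 19.2 FPKM were assigned to ENSMUST00000233814, which was listed at 0 in all 6 PZH mice.

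ENSMUST00000132668, which begins inside the gene, carried the largest share of Nfkb1 and fell from 5.48 ± 1.69 to 2.17 ± 0.584 FPKM (log2 fold change -1.01, limma adjusted p = 0.00141, n = 6 per group). ENSMUST00000029812, which spans the whole gene, was 4.79 FPKM in Control 5 and had a control median of 0.212 and a PZH median of 0.00941 (limma adjusted p = 0.462). In Nfkb2, ENSMUST00000111881, which begins next to the downstream start printed above, fell from 5.59 ± 1.84 to 2.06 ± 0.676 FPKM (log2 fold change -1.09, limma adjusted p = 0.00260, n = 6 per group). ENSMUST00000073116, which begins next to the upstream start, ranged from 0.397 to 7.44 FPKM in control and from 0 to 2.08 in PZH mice and did not pass (log2 fold change -1.31, limma adjusted p = 0.0975), although it did without Control 3 (adjusted p = 0.0467) or Control 6 (0.0407).

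In Relb, whose 2 transcripts share both ends, the whole 4.25 FPKM of Control 4 was assigned to ENSMUST00000049912, a transcript listed at 0 in all PZH mice, and ENSMUST00000094762 was at 0 in that mouse. Neither Relb transcript passed the test, with limma adjusted p of 0.446 and 0.271, although the sum did. Transcripts of 1 gene share most of their sequence and their FPKM is an estimate of how the fragments divide, so the gene sums are the firmer values. The call for Tnfaip3 likewise rested on ENSMUST00000105527, which fell from 1.86 ± 0.963 to 0.589 ± 0.307 FPKM, and ENSMUST00000146388, which fell from 0.449 ± 0.147 to 0.183 ± 0.0975 FPKM (limma adjusted p = 0.0274 and 0.0260). The first call was lost without Control 4, Control 5, Control 6, PZH 4 or PZH 6 (adjusted p from 0.0587 to 0.0622), and the second without Control 1, Control 4, PZH 3 or PZH 4 (from 0.0538 to 0.0589). ENSMUST00000019997, which spans the gene, was at 0.0806 ± 0.114 and 0.135 ± 0.216 FPKM and did not pass (adjusted p = 0.785).

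**Figure D4:**
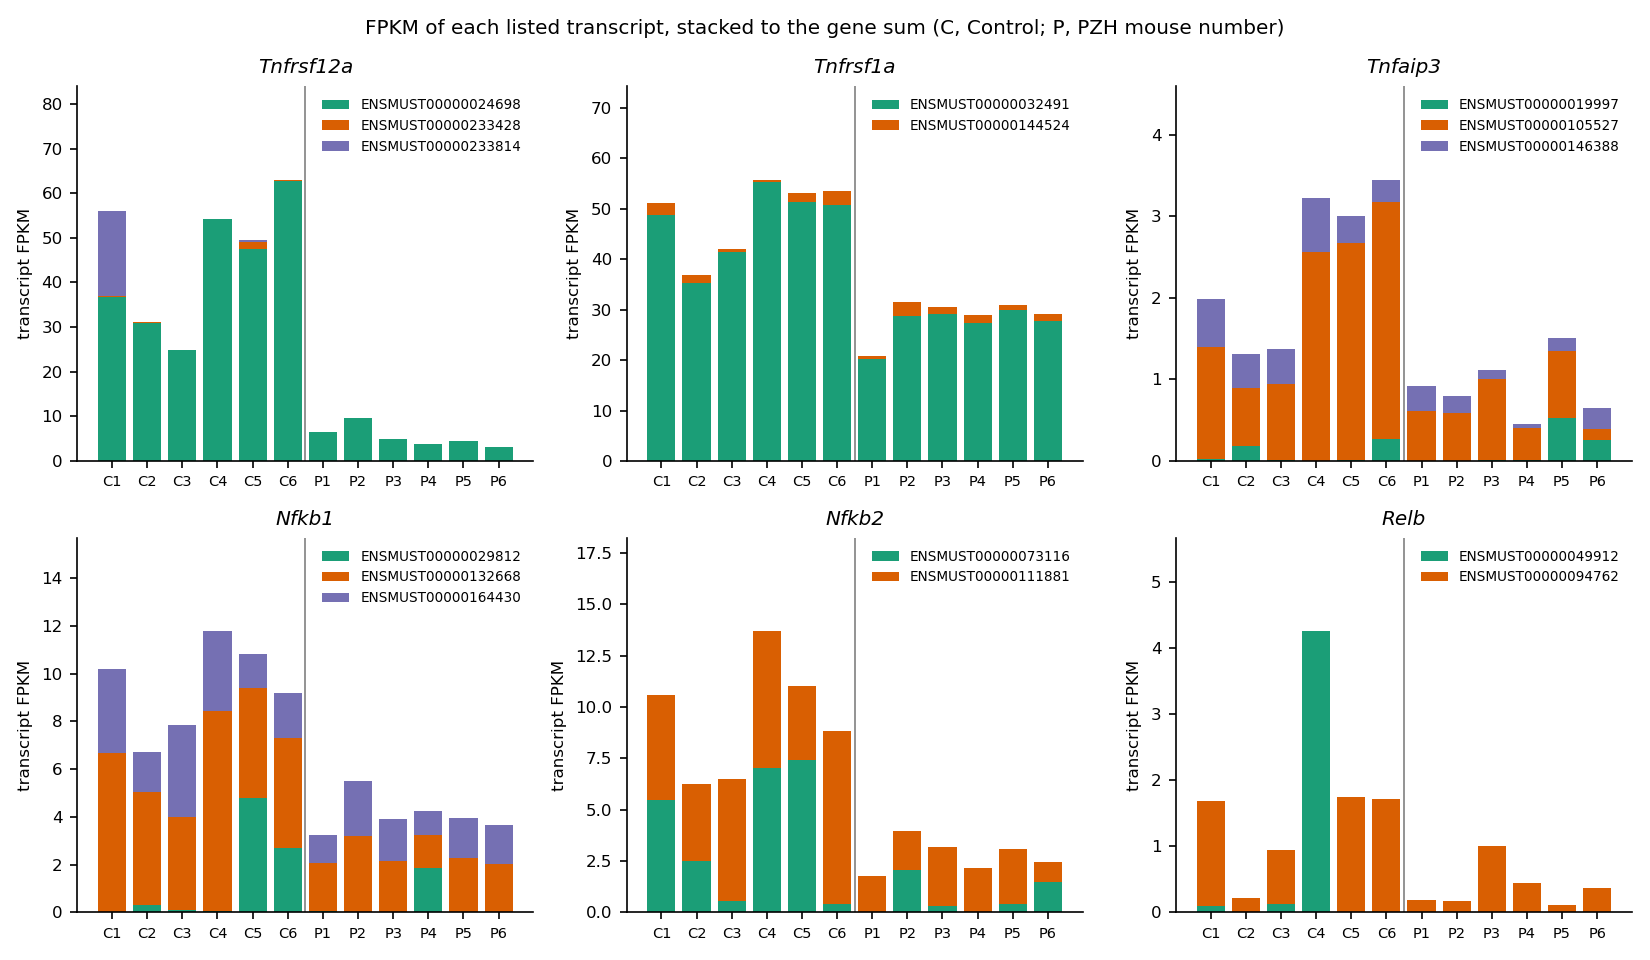
FPKM of the transcripts of 6 of the genes in each mouse, stacked to the gene sum, for the 6 control (C) and 6 PZH (P) mice, with each panel on its own linear axis from 0. In Tnfrsf12a, Control 1 holds 19.2 FPKM of ENSMUST00000233814, and Relb in Control 4 is all ENSMUST00000049912.

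The lncRNA table held 3 transcripts within 100 kb of the 10 genes. Gm26890, 3923 bp beyond the end of Relb on the same strand (GRCm38, chr7:19597293-19602294), fell from 0.858 ± 0.0780 to 0.651 ± 0.110 FPKM, with all 6 PZH mice below all 6 controls. Its log2 fold change was -0.17 with an SE of 0.05 (adjusted p = 0.0405 by limma over 1432 lncRNA transcripts, of which 20.6% were called, n = 6 per group). Gm17705, 32195 bp from Tnf, and Gm26792, 22902 bp from Nfkb2, were not called.

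The genes around these 10 in the pathway were counted in 6 lists of known components. Of all genes, 32.1% were called lower and 12.7% higher as deposited. After median-ratio scaling these shares were 19.7% and 19.3%. Of the other TNF superfamily ligands, 10 of 17 were in the table, 1 was higher and 1 was lower, with a median log2 fold change of -0.05 beside -0.11 over all genes. Tnfsf10 (TRAIL) rose from 1.60 ± 0.320 to 2.38 ± 0.377 FPKM, a log2 fold change of 0.38 (limma adjusted p = 0.00695, n = 6 per group). Tnfsf9 (4-1BB ligand) fell from 0.338 ± 0.121 to 0.101 ± 0.0631 FPKM, a log2 fold change of -0.28 (adjusted p = 0.00613). Its receptor Tnfrsf9 (4-1BB), a costimulatory receptor of T cells, fell from 1.35 ± 0.450 to 0.222 ± 0.201 FPKM, a log2 fold change of -0.94 (adjusted p = 0.000165).

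Of the other receptors of the superfamily, 21 of 25 were in the table, with 11 lower, 1 higher and a median of -0.27. Tnfrsf22, a decoy receptor for TRAIL in mice, fell from 2.17 ± 0.850 to 0.567 ± 0.169 FPKM (log2 fold change -0.98, limma adjusted p = 0.000289, n = 6 per group). Tnfrsf11b (osteoprotegerin), a secreted decoy, fell from 5.01 ± 0.928 to 2.29 ± 0.438 FPKM (log2 fold change -0.87, adjusted p = 7.16e-05). In the opposite direction, Tnfrsf19 rose from 1.03 ± 0.460 to 3.49 ± 0.397 FPKM, with all PZH mice above all controls (log2 fold change 1.17, adjusted p = 3.98e-05). After median-ratio scaling 9 of the receptors were lower and 3 higher.

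All 28 adaptors of the receptor complex, ubiquitin ligases and death adaptors were in the table, with 18 lower, none higher and a median of -0.33. After median-ratio scaling 8 were lower and 1 higher, so the number called lower depended on the scaling. Of all genes, 19.7% were called lower after this scaling. Among those that kept their call was Rnf31 (HOIP, the catalytic subunit of the linear ubiquitin ligase), which fell from 3.39 ± 0.824 to 1.43 ± 0.304 FPKM (log2 fold change -0.84, limma adjusted p = 0.000195, n = 6 per group). Map3k14 (NIK), the kinase that starts non-canonical signalling, fell from 2.67 ± 0.565 to 1.08 ± 0.325 FPKM (log2 fold change -0.82, adjusted p = 0.000237). Traf2 and Traf3, adaptors that limit NIK, fell as well, by 0.77 and 0.65 on the log2 scale (adjusted p = 0.000469 and 0.0189). Traf1, an NF-kB-induced adaptor, fell by 0.36 (adjusted p = 0.0294, and 0.0515 after median-ratio scaling). Ripk1, the kinase and scaffold of the TNF receptor 1 complex, was 8.69 ± 2.11 and 7.65 ± 2.74 FPKM and did not pass (log2 fold change -0.19, 95% interval -0.57 to 0.19, adjusted p = 0.416).

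All 7 IKK kinases and other Rel subunits were in the table, and 5 were lower, with a median of -0.41. Only 2 kept the call after median-ratio scaling, where 19.7% of all genes were called lower. Rela (p65) fell from 20.9 ± 3.47 to 10.1 ± 1.82 FPKM, with no overlap between the groups (log2 fold change -0.98, limma adjusted p = 0.000111, n = 6 per group). Ikbke, an IKK-related kinase, fell from 21.4 ± 1.67 to 10.1 ± 1.02 FPKM (log2 fold change -1.01, adjusted p = 6.59e-06). The calls of Chuk (IKK-alpha, -0.28), Ikbkg (NEMO, -0.68) and Rel (c-Rel, -0.35) had adjusted p of 0.0188, 0.0121 and 0.0140, and of 0.409, 0.0614 and 0.0779 after median-ratio scaling. Ikbkb (IKK-beta) was 5.74 ± 1.88 and 4.98 ± 1.93 FPKM and did not pass (log2 fold change -0.19, 95% interval -0.69 to 0.30, adjusted p = 0.522).

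Among the other IkB proteins and feedback inhibitors, all 16 were in the table and 11 were lower, with a median of -0.50, and 10 were lower after median-ratio scaling. Bcl3, a nuclear IkB protein that binds p50 and p52, fell from 30.3 ± 8.09 to 10.8 ± 3.66 FPKM (log2 fold change -1.44, limma adjusted p = 0.000228, n = 6 per group). Nfkbiz, another nuclear IkB protein, fell from 9.12 ± 2.67 to 4.50 ± 0.533 FPKM (log2 fold change -0.84, adjusted p = 0.000715). Nfkbib (IkB-beta) fell by 0.78 on the log2 scale and Rnf11, a partner of A20, by 0.83 (adjusted p = 0.000224 and 5.64e-05). Tnip1 (ABIN1), which also works with A20, fell by 0.49 (adjusted p = 0.00325), whereas Nfkbie (IkB-epsilon) did not pass at 0.750 ± 0.229 and 0.485 ± 0.190 FPKM (log2 fold change -0.24, adjusted p = 0.0771).

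Of 34 known NF-kB target genes 30 were in the table. Of these 22 were lower and none was higher, with a median of -0.84 beside -0.11 over all genes, and 21 were lower after median-ratio scaling. By the 2-fold criteria 10 were lower, against 2.50% of all genes. In 15 the PZH mice all lay below the controls, as they did in 17.9% of all genes. Cxcl1, a chemokine for neutrophils, fell from 43.8 ± 23.6 to 6.60 ± 4.54 FPKM (log2 fold change -2.52, limma adjusted p = 0.000201, n = 6 per group). Ccl2, a chemokine for monocytes, fell from 8.08 ± 4.37 to 0.736 ± 0.330 FPKM (log2 fold change -2.30, adjusted p = 2.28e-05). Ier3, an immediate early gene, fell from 9.43 ± 5.45 to 1.08 ± 0.336 FPKM, and Lcn2, an acute-phase protein, from 228 ± 193 to 43.6 ± 9.18 FPKM (log2 fold changes -2.18 and -2.06, adjusted p = 0.000101 and 0.000900). The wide SD of Lcn2 came from Control 4, which held 606 FPKM.

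**Figure D5:**
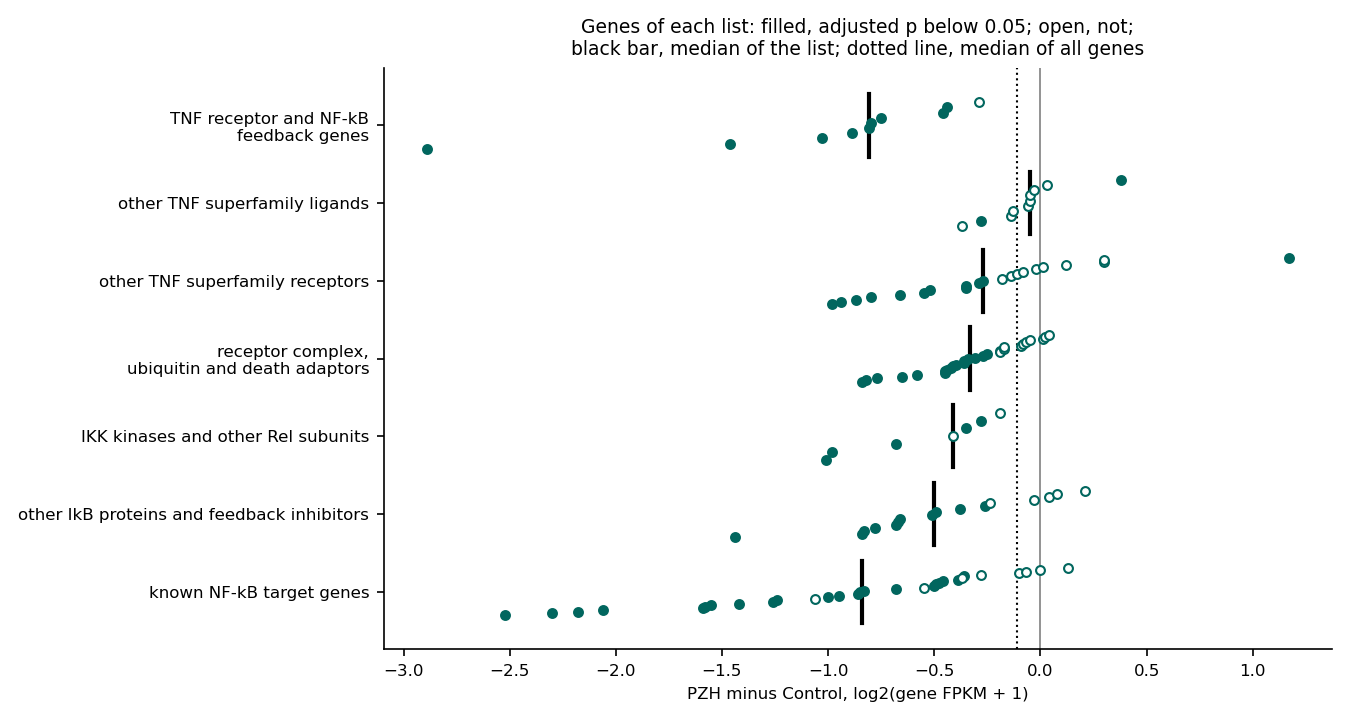
Log2 fold change (PZH minus control) of each listed gene in the 6 pathway lists and of the 10 genes described here, with the median of each list and of all 14188 genes. The medians of the 10 genes (-0.81) and of the NF-kB target genes (-0.84) lie farthest below that of all genes (-0.11).

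Markers of 8 liver cell types were summed in the same livers, since TNF and its receptors come from several of them. The 10 hepatocyte markers summed to 25369 to 39045 FPKM in control and 43318 to 60261 in PZH mice, with no overlap (exact p = 0.0022, n = 6 per group). Most of this sum was Alb (albumin), at 24059 FPKM in control and 38437 in PZH livers. Of the 10 markers 5 were higher and 1 was lower, Hnf4a, a hepatocyte transcription factor, which fell from 166 ± 7.94 to 135 ± 15.2 FPKM (limma adjusted p = 0.00937). Beside these counts, 12.7% of all genes were called higher and 32.1% lower. After median-ratio scaling Hnf4a was at -0.11 (limma adjusted p = 0.182), and 7 of the 10 markers were higher and 0 lower. The 5 cholangiocyte markers summed to 12.4 to 19.3 and 5.81 to 8.35 FPKM (exact p = 0.0022), but this difference was that of Sox9, which fell from 10.7 ± 1.78 to 2.73 ± 0.430 FPKM (limma adjusted p = 5.15e-06). The other 4 did not pass, with Krt19 at 3.07 and 2.88, Krt7 at 0.230 and 0.197, Epcam at 0.567 and 0.901 and Cldn7 at 0.557 and 0.581 FPKM, and Epcam was at 0 in 1 control mouse.

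As deposited, the macrophage markers moved in both directions. The 6 Kupffer cell markers summed to 143 to 207 and 157 to 234 FPKM (exact p = 0.747, n = 6 per group), with Clec4f and Vsig4 higher and Marco, a scavenger receptor, lower at 41.9 ± 15.1 and 9.46 ± 6.88 FPKM (limma adjusted p = 0.000702, groups apart). The 8 markers of monocyte-derived macrophages summed to 186 to 337 and 240 to 416 FPKM (exact p = 0.136), most of it Lyz2 at 190 and 235 FPKM, which did not pass. Within this list Itgam (6.61 and 2.86 FPKM), Ly6c2 (4.25 and 2.38) and Cd68 (27.5 and 21.9) were lower, and Trem2 (5.58 and 9.16) and Gpnmb (a log2 fold change of 1.17) were higher, with limma adjusted p of 0.0493, 0.0250, 0.0200, 0.0124 and 0.000828 in that order. The lower calls were lost with median-ratio scaling, at limma adjusted p of 0.0976 for Itgam, 0.0635 for Ly6c2 and 0.180 for Cd68. Under it 2 markers of this list were higher and 0 lower. The choice to name these markers was made with their values known.

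Of the remaining lists, endothelial markers summed to 88.2 to 101 FPKM in control and 77.1 to 99.9 in PZH mice, with 2 of 6 lower, and those of stellate cells and myofibroblasts to 80.1 to 137 and 105 to 174, with 2 of 7 higher and 2 lower. Neutrophil markers summed to 19.1 to 64.6 and 13.4 to 141, with 2 of 6 lower and Ly6g at 0 in 2 PZH mice, and T and NK cell markers to 2.11 to 4.05 and 1.67 to 3.07, with none of 7 called. Of all genes 32.1% were called lower, so 2 lower calls of 6 or 7 markers are near the share of all genes. Higher calls made up 12.7% of all genes. After median-ratio scaling 1 endothelial marker was lower and 1 higher, and the counts of the other lists in this paragraph stayed the same. The scaling factor also moved with the group, at 1.02 to 1.10 in control mice and from 0.840 up to 1 in PZH mice. The part of the cell makeup and of the scaling in the differences above was not tested beyond the ratios and the rescaled fits given.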

How the data were processed

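Liver RNA of 6 control and 6 PZH mice was sequenced from strand-specific libraries after ribosomal RNA was removed. According to the study's methods and the submitters' processing notes, reads were trimmed with Trimmomatic, aligned to GRCm38 with HISAT2 2.1.0 and assembled with StringTie 1.3.5 against Ensembl 95. The deposited values are FPKM per transcript, computed by the authors, for 29883 protein-coding and 1432 lncRNA transcripts. They hold no read counts and none were recovered here, so depth is unknown and precision is that of the spread between mice. FPKM sums per mouse were 325302 to 370426.

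Transcripts were assigned to genes by their Ensembl identifiers through GENCODE M21 (29876 of 29883 matched) and summed. Groups were compared on log2(FPKM + 1) with limma 3.58.1 in R 4.3.3, all 12 mice in 1 fit without covariates, with Benjamini-Hochberg adjustment over all genes or transcripts and a threshold of 0.05. The study names no package for its own comparison. Single values and ratios were tested with exact two-sided permutation tests in Python 3.11.15 with numpy 2.4.6. Tested on simulated data at gene level, limma recovered 193 of 200 genes (96.5%) changed by 1.5 on the log2 scale among 14188 and called 14 unchanged genes. The simulation had few changed genes, in random directions, no smaller changes and no scaling shift between groups. In the data 44.8% of genes were called, so it does not give the error rate here. No batch is given in the labels, and no pair of libraries was alike beyond a correlation of 0.985.

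The genes, lists and tests were chosen with earlier results of these data known. All 10 genes are named. From each pathway list, up to 4 called genes of the largest absolute log2 fold change are named, and in addition Tnfsf12, Rela, Rel, Ripk1, Traf2, Traf1, Birc2, Chuk, Ikbkb, Ikbkg, Map3k14, Bcl3, Nfkbie, Nfkbiz and Tnip1. The 5 most correlated genes are named for Tnfrsf12a and Nfkbia. Alternatives were a pseudocount of 0.1 (for ratios, 1), median-ratio scaling, an equal FPKM sum, limma without variance moderation or with a mean-variance trend, a mean FPKM of at least 1, the 2-fold criteria, a replicate block and leaving out each mouse. 1 marker list is not reported here.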

Additional observations from a re-analysis of the deposited data

Results flagged for a closer look

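A mouse apart from the rest of its group was looked for in each of the 10 genes and both groups, 20 groups in all, by the gap to its nearest neighbour as a share of the group's range. Dixon's 95% critical value for 6 mice is passed by chance in about 1 group in 20, and 2 of the 20 passed. Tnf in PZH 3 was 0.710 FPKM, while the other 5 PZH mice lay between 0.144 and 0.298, a share of 0.686. PZH 3 was also apart from the other PZH mice in the neutrophil markers S100a8 (76.0 FPKM against 3.76 to 8.10), S100a9 (40.6 against 1.49 to 4.29), Ly6g (0.952 against 0 to 0.113) and Retnlg (17.7 against 5.74 to 8.18). It was the highest PZH mouse in the rest of that list too, Csf3r (4.16) and Cxcr2 (1.04). The part of neutrophils in its Tnf level was not tested. Tnfrsf1a in PZH 1 was 20.8 FPKM, while the others lay between 29.0 and 31.5, a share of 0.800. PZH 1 also had the lowest scaling factor of the 12 libraries, 0.840, and the highest FPKM sum, 370426, and the part of the scaling in its Tnfrsf1a level was not tested. Over the 12 fits that left out 1 mouse each, these 2 mice included, both genes were called lower, with log2 fold changes from -0.90 to -0.73 for Tnf and from -0.82 to -0.66 for Tnfrsf1a.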

How the results depend on the processing

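Median-ratio scaling took the calls of Tnfrsf1b (-0.27, limma adjusted p = 0.0532) and Birc3 (-0.30, adjusted p = 0.0619), and turned the split of all calls from 1798 higher and 4560 lower to 2737 and 2793, or from 28.3% to 49.5% higher. Under it 3 receptors, 1 adaptor and 2 IkB and feedback genes were higher, and 8 adaptors and 2 IKK and Rel genes lower. The 2-fold criteria, which use an unadjusted p, called 570 genes (215 higher, 355 lower) where the adjusted test called 6358, and 3 of the 10 genes, 0 ligands in either direction, 0 receptors, 0 adaptors, 1 IKK or Rel gene, 1 IkB or feedback gene and 10 target genes lower. With a mean FPKM of at least 1, Tnf was not tested and 0 ligands were lower. Adding a pseudocount of 1 to each gene turned the ratio of Relb to Rela to 0.09 (adjusted p = 0.758). On that scale the log2 fold changes were close, -0.89 for Relb and -0.98 for Rela. The cause of the other shifts was not tested.

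Leaving out 1 mouse at a time gave 9 to 10 of the 10 genes lower, with Nfkbia from -0.39 to -0.21, the ratio of Relb to Rela from -1.54 to -0.75, 1 to 2 ligands lower, 1 to 3 receptors higher and 0 to 1 IkB or feedback genes higher. For the ligands the count of 2 came without Control 3 or PZH 2, and for the receptors 2 came without Control 4 and 3 without PZH 2. The transcript ENSMUST00000144524 of Tnfrsf1a, at -0.09 (-0.24 to 0.04 with 1 mouse left out), was at 0.00 under median-ratio scaling, 0.00 without Control 1, 0.04 without Control 6 and 0.02 without PZH 1, and ENSMUST00000019997 of Tnfaip3, at 0.06, was at -0.03 without PZH 5. Of the 12 fits that left out a mouse, the call was lost in 8 for ENSMUST00000013949 of Birc3, 6 for ENSMUST00000030336 of Tnfrsf1b, and 5 and 4 for ENSMUST00000105527 and ENSMUST00000146388 of Tnfaip3.

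The replicate numbers did not pair the mice: deviations of same-numbered mice correlated from -0.08 to 0.09, with 0 of 6 pairs above 0.1, and 1 of 6 control mice was most like its own number. With a replicate block 9 of the 10 genes were lower and Nfkbia had an adjusted p of 0.0683, 2 ligands were lower, and the ratio of Tnfrsf1b to Tnfrsf1a (0.29) had an adjusted p of 0.0750, where the smallest exact p of a paired test is 0.0312.

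The values are FPKM estimates without counts, Tnf, Relb and Tnfaip3 lie near 1 FPKM or below in PZH livers, and transcripts of a gene divide shared fragments. Whole liver was measured at 1 time, without uninjured mice, and protein was not analysed here.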
